A study of Mus musculus with 2 samples.

Results

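Netrins are secreted guidance proteins, and the genes described here are those of 3 netrins (Ntn1, Ntn3 and Ntn4) and of 6 of their receptors (Dcc, Neo1, Unc5a, Unc5b, Unc5c and Unc5d). These 9 genes were looked up by symbol in a deposited table that pairs genes with POU3F1 peaks, out of 21900 protein-coding genes of the reference. A total of 3 of the 9 had a row there, Unc5c with 7 peaks and Dcc and Unc5d with 2 each. The 11 peaks were taken from a deposited list of 2652. A gene without a row had no assigned peak.

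The maps of POU3F1, a transcription factor with a POU domain, came from WT (wild-type) retinas of the CD1 mouse strain, taken at embryonic day 14 and profiled with CUT&RUN. In CUT&RUN an antibody tethers a nuclease to its target protein, and the DNA fragments cut free around it are sequenced. The data comprised 1 library with the POU3F1 antibody and 1 with unspecific rabbit IgG. Peaks had been called once, on the POU3F1 library, so no value below has a replicate check and no test between antibodies was possible. The labels give the tissue as retina and the cells as retinal, so the cells in which a peak was bound are not known, and POU3F1 peaks do not measure expression.

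Netrins are laminin-related proteins that attract growing axons through the receptor DCC and its relative neogenin, encoded by Neo1. They repel axons through receptors of the UNC5 family, alone or together with DCC. In the developing mouse eye, netrin-1 at the optic disc guides axons of retinal ganglion cells out of the retina through DCC, and UNC5C is a receptor known from axons that avoid netrin-rich tissue.

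The POU3F1 peaks of these genes lay far from the start sites and were of low enrichment. All 11 lay between 68506 and 983223 bp from the start site of the netrin receptor gene to which they were assigned, with a median distance of 229 kb, against 161 kb over all 4427 pairs. The median was 230 kb for Slit and Robo genes and 135 kb for Eph receptor genes. Within 50 kb lay 4 of 22 peaks for Slit and Robo, 3 of 25 for Eph receptors and none of these 11. Over all pairs the share was 23.8%. None of the 9 genes had a peak within 50 kb of its start, where 3.67% of protein-coding genes had one, or within 5 kb, where 1.40% did. Their fold enrichment, as the authors deposited it, ran from 3.08 to 6.74 with a median of 4.23. Over the whole list the median was 6.37, with quartiles of 4.91 and 8.84. The deposited values match a fold of the summit pileup plus 1 over the local background plus 1, which understates the plain ratio of pileup to background at peaks of few fragments. As plain ratios the median was 5.84 for the 11 peaks and 9.65 for all peaks with a recovered pileup. None of the 3 ligand genes had a peak. Since 10.2% of all protein-coding genes had one, this is not read as particular to the ligands.

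**Figure D1:**
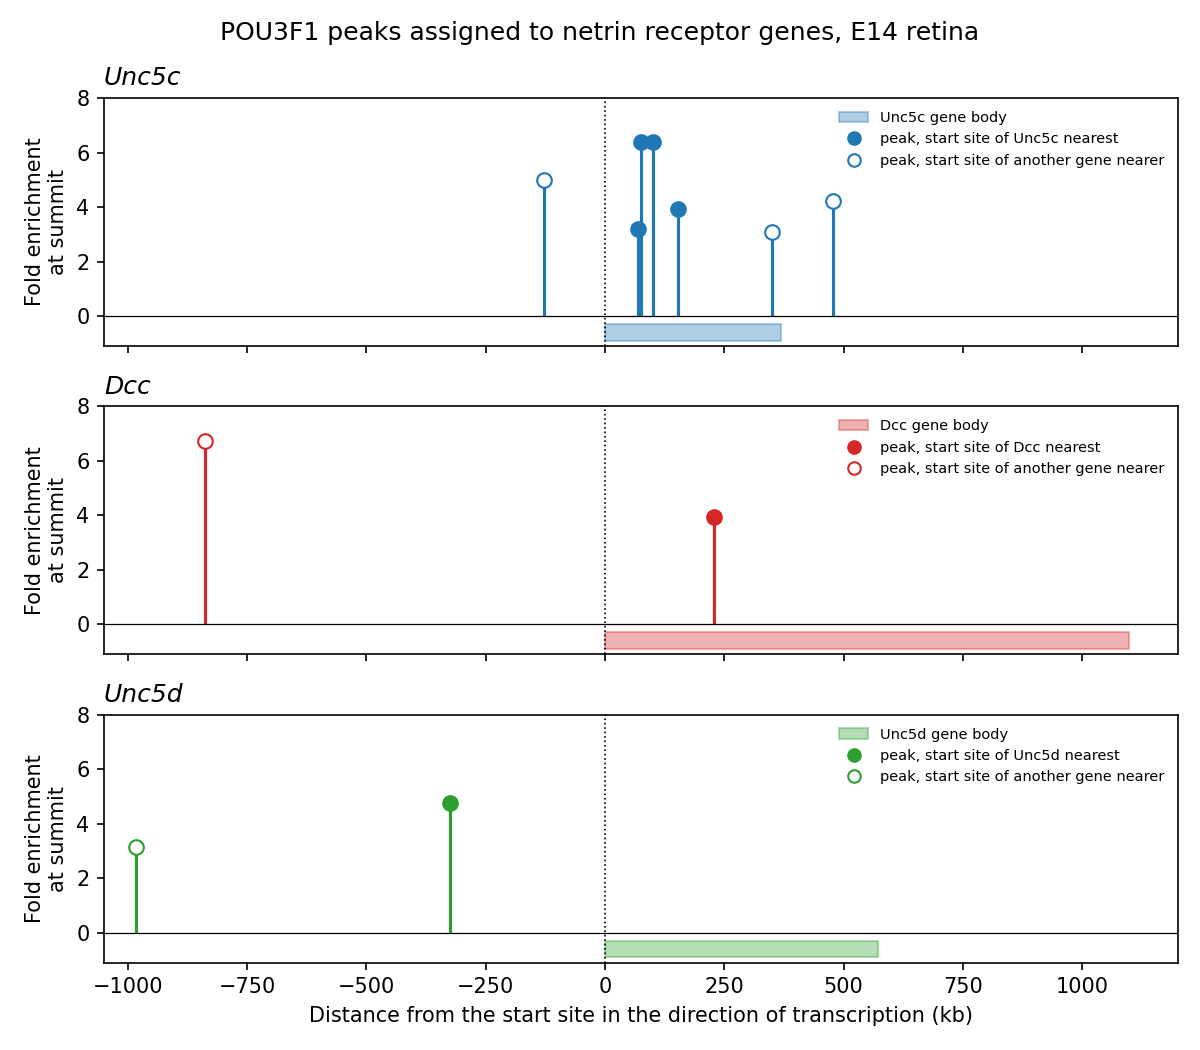
Position and fold enrichment of each assigned POU3F1 peak at Unc5c (top), Dcc (middle) and Unc5d (bottom), plotted against the distance from the gene's start site in kb, with positive distances in the direction of transcription. Filled points are peaks whose nearest assigned start site is that of the named gene and open points are nearer to another gene; bars below the axis are the gene bodies. No point lies within 68 kb of the start site of the named gene.

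The share of genes with a peak was 3 of 9, or 33.3% (95% exact binomial interval 7.49 to 70.1%), against 10.2% of protein-coding genes. That interval treats the 9 genes as independent draws, although they are a chosen list with loci of unequal length, scored in 1 library. Genes in long loci collect more peaks. Among genes whose locus, taken between the start sites of the flanking protein-coding genes, was at least 1 Mb, 49.5% had a peak, against 6.0% of genes with a locus under 0.5 Mb. The loci of Dcc (2.78 Mb) and Unc5d (2.57 Mb) fell in the first class. The locus of Unc5c (0.770 Mb) lay between these classes, where 37.6% of genes had a peak. The 6 genes without a peak all had loci under 0.5 Mb, from 0.0512 Mb for Ntn3 to 0.469 Mb for Neo1. No test of the share was made, and it is not read as particular to these genes.

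**Figure D2:**
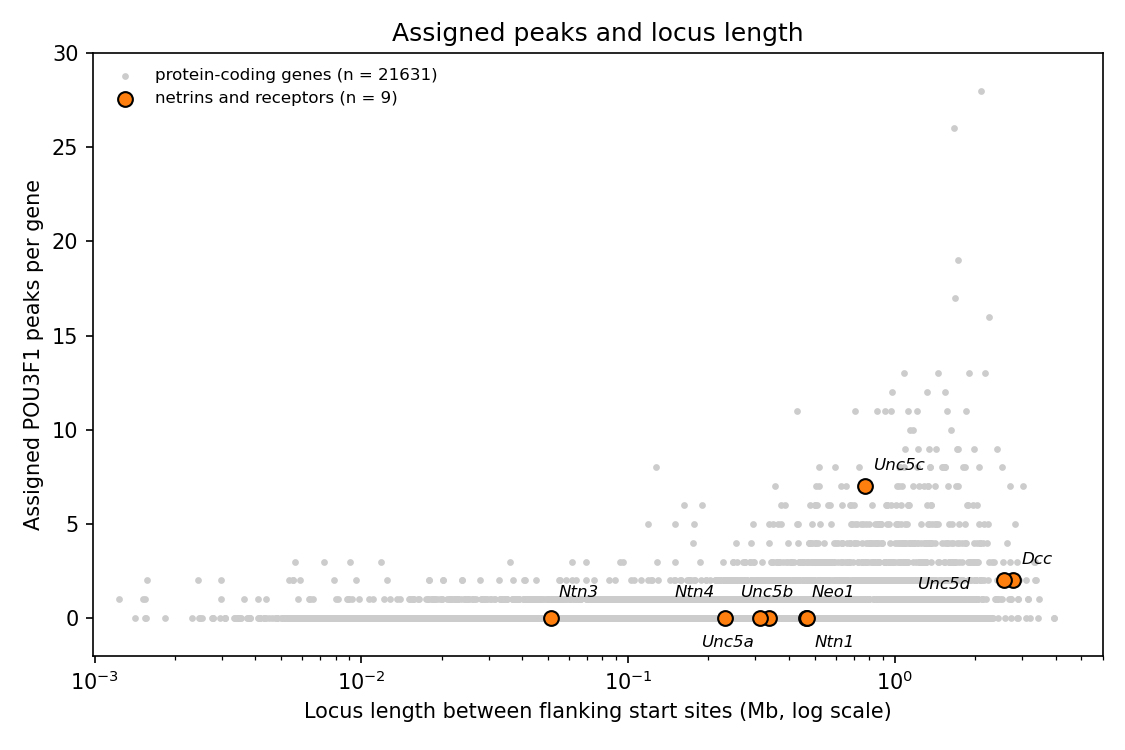
Number of assigned POU3F1 peaks per gene against locus length in Mb on a log axis, for 21631 protein-coding genes of the autosomes and chromosome X (grey) and the 9 netrin and receptor genes (orange). Unc5c stands at 7 peaks, Dcc and Unc5d at 2 in loci over 2 Mb, and the other 6 genes at 0.

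Promoter sequence is shown for the receptor gene with the most peaks, to show its promoter, which held no peak, and for the ligand gene whose promoter held a POU-type word. RefSeq promoter windows (GRCm38.p6, the assembly of mm10) were matched for 6 of the 9 genes, all but Ntn1, Dcc and Unc5d. Printed are the 250 bases before the annotated start, on the strand of the gene, with capitals marking a match to a searched word. The gene table placed the start of Unc5c at 141465573, slightly downstream of the RefSeq start at 141465564, just before which the window ends.
Unc5c, chr3:141465314-141465563, plus strand: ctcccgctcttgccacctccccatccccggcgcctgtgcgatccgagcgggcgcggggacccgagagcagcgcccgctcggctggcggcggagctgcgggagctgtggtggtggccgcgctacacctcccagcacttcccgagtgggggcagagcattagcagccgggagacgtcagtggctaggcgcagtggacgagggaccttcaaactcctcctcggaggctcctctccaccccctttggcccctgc
Ntn4, chr10:93640799-93641048, plus strand: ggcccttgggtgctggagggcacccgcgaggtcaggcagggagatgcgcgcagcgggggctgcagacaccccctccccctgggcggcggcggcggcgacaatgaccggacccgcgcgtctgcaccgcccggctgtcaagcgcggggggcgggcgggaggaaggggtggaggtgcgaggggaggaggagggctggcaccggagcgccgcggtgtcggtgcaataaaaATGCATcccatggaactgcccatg

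Both promoters were rich in G and C, at 71.2% for Unc5c and 73.2% for Ntn4, against a median of 52.4% over all promoters. The words were searched on both strands in windows of 300 bases that include 50 bases after the start. They were ATGCAAAT, the octamer bound by POU factors, its variant ATGCTAAT, and ATGCAT, a palindromic half-site found in sites of POU dimers. Neither octamer form was in any of the 6 promoters, where 1.77% and 0.929% of 26794 promoters held ATGCAAAT and ATGCTAAT. The shorter ATGCAT was in 1 of the 6, that of Ntn4, 24 bp before the start, and in 4.93% of all promoters. A match is only a run of letters in these windows, and none of the 6 promoters overlapped a POU3F1 peak. The sequences under the 11 peaks themselves were not analysed here.

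Among the receptors, Unc5c, whose product mediates repulsion from netrin, carried most of the peaks. The gene (ID 22253) spans chr3:141465564-141834924 and is 369 kb long. Its 7 peaks had folds of 5.0, 3.18, 6.39, 6.39, 3.92, 3.08 and 4.23, in the order of their position along the chromosome. Few genes had as many: 71 of the 2323 genes in the table (3.06%) had 7 or more, and 62.0% had 1. Of the genes with a locus of 0.5 to 1 Mb, 0.913% had 7 or more.

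A group of 4 Unc5c peaks lay in the first part of the gene body, 68.5 to 153 kb downstream of the start. The nearest to the start, at chr3:141533909-141534252, had the highest q-value of the 11, 0.0449, with 3.18-fold enrichment and 12 fragments at the summit (95% exact Poisson interval 6.20 to 21.0). Only 3.36% of all peaks had a lower fold. The next pair, at chr3:141540762-141540981 and chr3:141565635-141566003, had identical deposited values of 6.39-fold and a q-value of 5.55e-07. Each rested on 12 summit fragments over a background of 1.04, the lowest background in the list, and had a plain ratio of 11.6. They were the Unc5c peaks of highest fold, and 50.3% of all peaks had a lower fold. Lower q-values were found at the Unc5c peaks 478 kb downstream (6.59e-11) and 127 kb upstream (4.75e-08). The last of the group, at chr3:141618760-141619005, had 3.92-fold enrichment with 15 fragments (interval 8.40 to 24.7). The Poisson intervals cover counting error only, and those of these 4 peaks overlap.

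Further along, a peak at chr3:141814552-141815173, still within the Unc5c gene body and 349 kb from its start, had the lowest fold of the 11 and the highest pileup. It held 40 summit fragments (28.6 to 54.5) over a background of 12.3, with a deposited fold of 3.08 and a q-value of 5.55e-07. A peak beyond the gene, at chr3:141943371-141943674, held 38 fragments (26.9 to 52.2) over a background of 8.22 (4.23-fold, q-value 6.59e-11). Upstream of Unc5c the single assigned peak, at chr3:141338170-141338893, was the longest of the 11 at 724 bp (22 fragments, 5.0-fold). Fold and fragment number thus ordered these peaks differently.

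**Figure D3:**
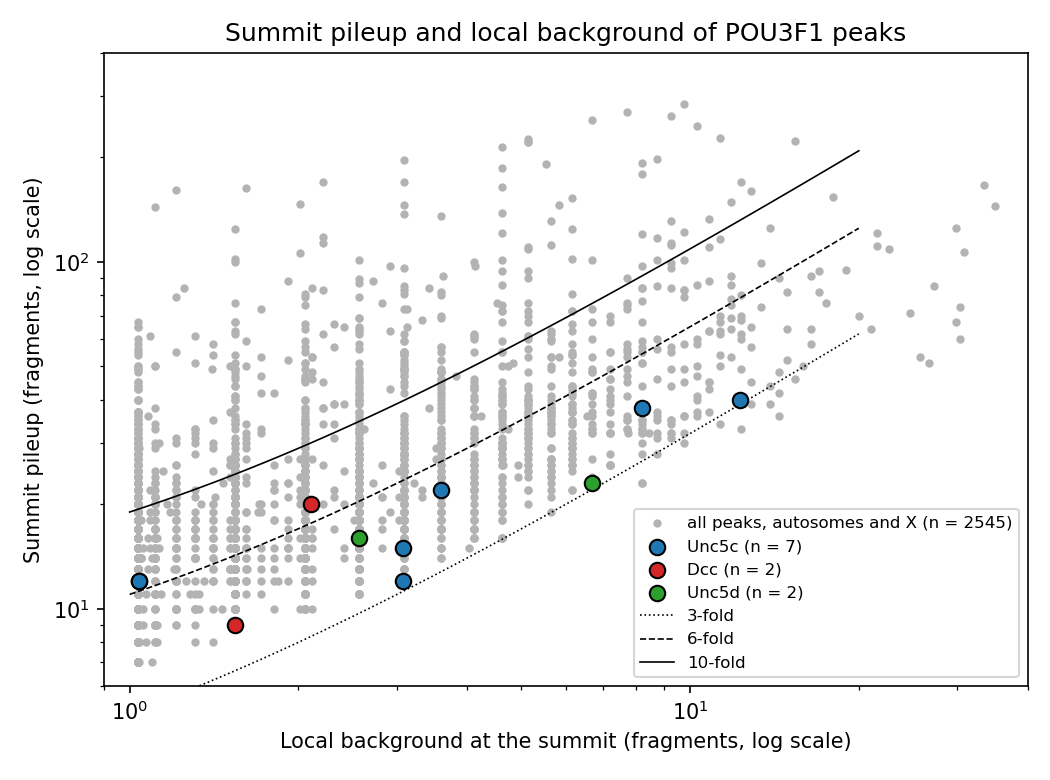
Summit pileup against the local background estimate, both in fragments recovered from the deposited fold and p-value and both on log axes, for 2545 peaks of the autosomes and chromosome X (grey; peaks over a background of 40 or a pileup of 400 are not drawn) and the 11 netrin receptor peaks (coloured; 2 Unc5c peaks coincide at 12 fragments over 1.04). Lines mark equal fold, computed with 1 added to both; the coloured points lie between about the 3-fold line and just above the 6-fold line.

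Every Unc5c peak was also assigned to a neighbour, because domains in the table extend from each gene to the next. The other gene was Bmpr1b, which encodes a type I receptor for bone morphogenetic proteins, for the 6 downstream peaks, and Pdha2, which encodes a pyruvate dehydrogenase subunit, for the upstream peak. The 4 peaks in the first part of the gene body were nearer to the start of Unc5c than to that of Bmpr1b, which was 363 to 448 kb away. The peak at 349 kb was nearer to Bmpr1b (167 kb), and so was the one beyond the gene (38.7 kb), which lay inside the Bmpr1b body. The upstream peak was almost equally far from both starts, 127043 bp from that of Unc5c and 126176 bp from that of Pdha2.

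Dcc, the receptor through which netrin-1 attracts axons, had 2 peaks over a locus of 2.78 Mb. Part of that locus lay more than 1000000 bp from the Dcc start, beyond the extension limit of the gene table. Peaks there could not be assigned to Dcc, so its rate per Mb is not compared with that of Unc5c. The gene (ID 13176) spans chr18:71253613-72351228 and is 1098 kb long. The peak inside it, at chr18:72122303-72122500, lay 229 kb downstream of the start and was the shortest of the 11 at 198 bp. It had the fewest fragments of the 11, with 9 at the summit (4.12 to 17.1), a fold of 3.93 and a q-value of 0.0136. Dcc was the only gene to which it was assigned. The second, at chr18:73189573-73189987, had the highest fold of the 11, 6.74, with 20 fragments (12.2 to 30.9) and a q-value of 1.43e-10. It lay 839 kb upstream of Dcc and was nearer to Mex3c, which encodes an RNA-binding ubiquitin ligase, at 383 kb. By fold it ranked 1172 of the 2652 peaks.

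Unc5d, a further repulsive netrin receptor gene (ID 210801, chr8:28646717-29219671), had 2 peaks, both upstream and both outside annotated genes. The nearer, at chr8:29543938-29544402, was 325 kb from the start, had 4.76-fold enrichment and 16 fragments (9.15 to 26), and was assigned to Unc5d alone. The farther, at chr8:30202697-30203022, lay 983 kb upstream and was also assigned to the phosphatase gene Dusp26, 887 kb away. It had 3.13-fold enrichment and 23 fragments (14.6 to 34.5) over a background of 6.68. No peak fell in the 573 kb of the Unc5d body.

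Across the 3 genes, 6 of the 11 peaks (54.5%) overlapped the body of the receptor gene itself, 5 of them in Unc5c and 1 in Dcc. A further peak lay in Bmpr1b, and 4 of the 11 lay outside annotated genes. Of all peaks on the autosomes and chromosome X, 48.9% overlapped any protein-coding gene, a wider measure than overlap with the assigned gene. Exons and introns were not separated here. A total of 9 of the 11 peaks (81.8%) were shared with another gene, as were 71.1% of all placed peaks. For 5 of the 11 that other gene was the nearer one. At a q-value under 0.01, 9 of 11 remained, against 97.4% of the whole list.

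Several of these peaks had a higher local background than the median of all peaks. Their summit pileup had a median of 16 fragments, against 19 over all peaks, and their background a median of 3.08 against 1.54. In 8 of the 11 the background exceeded the median of all peaks, and in 8 of the 11 the fold was below the median of all peaks. These were not all the same peaks: the 6.74-fold Dcc peak had a background of 2.11 and the 3.93-fold Dcc peak 1.54. None of the 11 reached 10-fold, which 18.7% of all peaks did. With 3 counts taken as the upper limit for a count of 0, the share could be up to 27.3%. That limit treats the peaks as independent, although they came from 1 library and 7 were assigned to Unc5c. As plain ratios 2 of the 11 reached 10, both in Unc5c, against 46.9% of all peaks with a recovered pileup. The background was recovered from the deposited fold and p-value and stands in the denominator of the fold, so background and fold are tied by construction. Why the background differed between peaks was not tested.

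The genes without an assigned peak had 0 to 3 peaks within 1 Mb of the gene body, where the median over all protein-coding genes was 1 and the quartiles 0 and 2. Ntn1 had 3, Unc5a 2, Ntn4 and Neo1 1 each, and Ntn3 and Unc5b 0; of the genes with an assigned peak, Unc5c had 10, Dcc 5 and Unc5d 2. Unc5a, an UNC5 receptor gene, had the closest, 95.9 kb beyond its end at chr13:55101891-55102501 (6.69-fold, 16 fragments), between Uimc1 and Zfp346 and assigned to both, 1901 and 3131 bp upstream of their starts. The nearest peak to Ntn1, which encodes the best-studied netrin, was 380 kb away inside the myosin gene Myh10 (6.13-fold, 15 fragments). Its other peaks within 1 Mb lay 686 kb away in Tmem107 (7.24-fold, 36 fragments) and 939 kb away in Kcnab3 (6.22-fold, 18 fragments). For the neogenin gene Neo1 it was 541 kb away, 257 bp upstream of the start of Celf6, which encodes an RNA-binding protein (3.42-fold, 34 fragments). For Ntn4, which encodes a netrin of basement membranes, it was 646 kb away inside Tmcc3 (5.89-fold, 11 fragments). The nearest peak was 1743 kb away for Unc5b, the UNC5 gene known from blood vessels, and 1352 kb away for Ntn3.

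Slit ligands with their Robo receptors and Eph receptors, other guidance families, are set beside the netrin genes here for scale. A peak was assigned to 3 of 9 netrin and receptor genes, 4 of 7 Slit and Robo genes and 6 of 14 Eph receptor genes. Over all protein-coding genes the share was 10.2%, and 49.5% among those with a locus of at least 1 Mb. In the same order, the median loci were 0.466, 0.936 and 0.266 Mb, and 2, 3 and 6 genes had a locus of at least 1 Mb. The median fold was 4.23 over 11 netrin receptor peaks, 6.64 over 22 Slit and Robo peaks and 5.71 over 25 Eph receptor peaks. Folds under the median of all peaks made up 72.7% of the netrin receptor peaks, 45.5% of the Slit and Robo peaks and 56.0% of the Eph receptor peaks. At least 10-fold enrichment was reached by none of the netrin receptor peaks, 5 of the Slit and Robo peaks and 5 of the Eph receptor peaks. Of all peaks, 18.7% reached it. Epha3, with 10 peaks, led the Eph receptors, and Robo1 and Robo2 had 7 each, as Unc5c did. The strongest peak of Robo1 had 36.0-fold enrichment and that of Robo2 6.44-fold, close to the 6.39-fold of Unc5c. These differences were not tested, since peaks of a single library are not replicates.

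**Figure D4:**
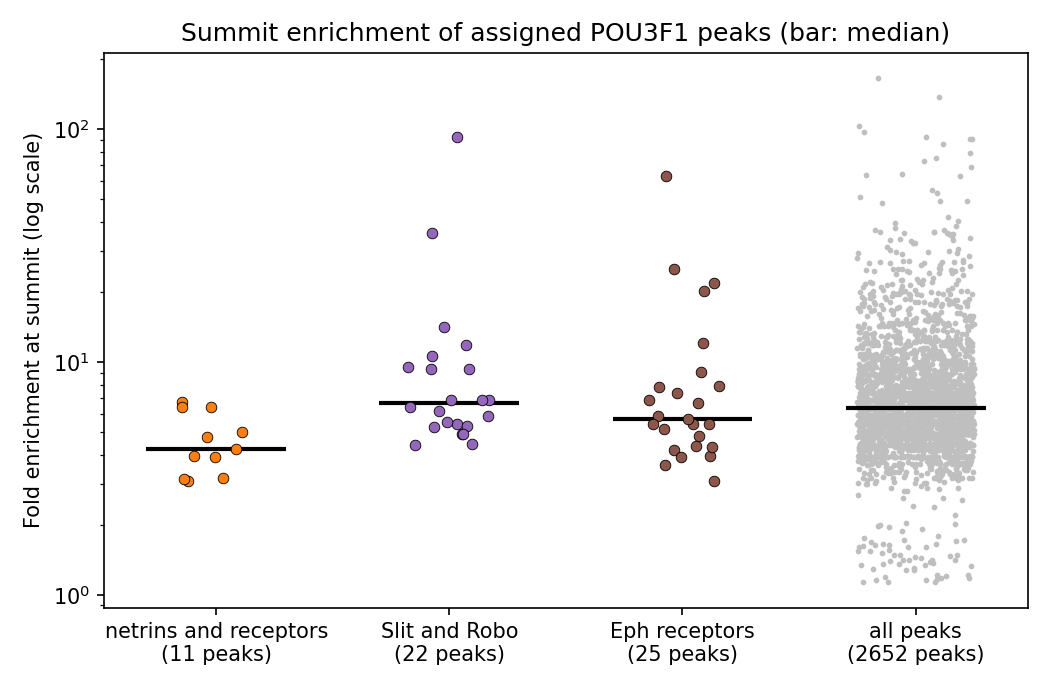
Fold enrichment at the summit on a log axis for the peaks assigned to netrin and receptor genes (11 peaks), Slit and Robo genes (22), Eph receptors (25) and all 2652 peaks; each point is a peak and bars are medians. The netrin receptor peaks all lie under 10-fold, with a median of 4.23 against 6.37 for all peaks.

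A list of other genes around netrin signalling included some with stronger peaks than any of Dcc, Unc5c or Unc5d. It also held netrin-G genes, other binding partners of neogenin and UNC5, and Robo3. Of the 48 genes in this list, 17 (35.4%) had an assigned peak against 10.2% of protein-coding genes, with 41 peaks of a median 6.88-fold. The protein-coding share ran from 6.0% for loci under 0.5 Mb to 49.5% for loci of at least 1 Mb. The median locus of all 48 genes was 0.276 Mb, and 7 of the 48 had a locus of at least 1 Mb. The share is not read as particular to the list. The list was chosen with earlier results of these data known, and no test of it was made.

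Binding partners of neogenin and UNC5 made up 6 of these 17 genes, out of 8 in the list. Flrt3, whose product is a repulsive ligand of UNC5 receptors, had 7 peaks. They included the single peak of the 48 genes within 5 kb of a start, 2109 bp downstream and 4.27-fold. Its relatives Flrt1 and Flrt2 had 2 each, reaching 5.40-fold and 14.7-fold. Adgrl3, a latrophilin gene whose product binds FLRT and UNC5 proteins, had 5 peaks, the strongest of 21.7-fold and 121 fragments within the gene. The neogenin ligand genes Rgma and Rgmb had 3 peaks and 1 peak, with strongest folds of 17.0 and 5.88.

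Of the other netrin receptor genes, Dscam had 5 peaks (strongest 14.2-fold, 25.7 kb downstream of the start) and Dscaml1 had 3 (strongest 22.5-fold, 196 kb downstream), while Mcam had none. Both genes encode adhesion proteins of the immunoglobulin superfamily with roles in retinal wiring. Lrrc4c, whose product is a ligand of netrin-G1, had 3 peaks, the strongest of 16.0-fold, and Ntng1, which encodes netrin-G1, had 1 of 6.88-fold. Draxin, which encodes a netrin and DCC antagonist, and Robo3 had none.

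Downstream of the receptors, 7 of 30 genes had a peak (23.3%). The strongest was 64.8 kb upstream of Evl, an Ena/VASP gene of actin assembly, with 24.6-fold enrichment and 49 fragments, and the next lay inside Map1b, which encodes a microtubule-associated protein (14.7-fold). The remaining 5 were Trim67 (9.33-fold), Dock1 and Cblb (7.37-fold each), Prkca (7.24-fold) and Dapk1 (7.18-fold). Each of these folds exceeded the highest of Dcc, Unc5c or Unc5d.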

How the data were processed

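Bowtie2, MACS2, deepTools and the build mm10 are listed, with no version, in the submitters' processing notes. The authors' deposited peak list is in the MACS2 narrow-peak layout, with a fold enrichment (ratio) at the summit, −log10 p-value and q-value, and a score, which is 10 times the −log10 q-value without decimals in all 2652 peaks. Whether the IgG library served as control is not given in the sources used here. Per the file headers, the gene table was made with GREAT 4.0.4 (5000 bp upstream, 1000 bp downstream, extension up to 1000000 bp), and it holds 4427 pairs of 2323 genes.

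Each distance was placed on a peak midpoint within 2 bp, which placed 97.5% of pairs and all 11 of the receptor genes. Gene positions came from RefSeq (GRCm38.p6), with 2184 genes matched by symbol and 86 by synonym, using Python 3.11.15. Library depth is unknown. Summit fragments were recovered as the whole number, up to 1000, whose fold and Poisson p-value match the deposited ones within 0.001, which succeeded for 97.3% of peaks. The match takes the fold as pileup plus 1 over background plus 1. Both steps were tested on simulated data. Loci were taken between flanking start sites, at most 1000000 bp beyond the gene. The planned motif search under peaks was not run, as no genome sequence was used here, and promoters were searched instead. Members and lists were chosen with earlier results of these data known. All 9 members are named, with each gene sharing a peak with them and up to 10 of the highest-fold genes of the list around netrin signalling. Rgmb, Flrt1, Ntng1, Cblb, Dock1, Prkca and Dapk1 were named beside them to complete their groups. Alternatives were stricter q-values, shorter distances, the nearest gene only and peak midpoints.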

Additional observations from a re-analysis of the deposited data

How the results depend on the processing

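Within 50 kb of their start sites the number of netrin and receptor genes with a peak was 0, and so was the number of their peaks. Within 5 kb both were 0 too. Over all protein-coding genes, 3.67% had a peak within 50 kb and 1.40% within 5 kb. Of all pairs, 23.8% lay within 50 kb. With each peak given to its nearest assigned gene alone, all 3 genes still had a peak but their peaks numbered 6, with 4 for Unc5c and 1 each for Dcc and Unc5d. Of the 48 listed genes around netrin signalling, 6 had a peak within 50 kb and 1 within 5 kb. At a q-value under 0.01 or 0.001 the peaks numbered 9, and Dcc kept 1 of 2, the distant one nearer to Mex3c. The median fold was 4.23 as deposited, 4.76 under both stricter q-values and 4.35 under the nearest-gene rule. It was 5.84 as a plain ratio without the added fragment, a setting chosen after seeing the data. No paired analysis was possible because each antibody had 1 library. The planned motif search in a 300-base window around the summits was not run. Fewer than 20 summit fragments stood behind 6 of the 11 peaks, and behind 52.1% of all peaks with a recovered pileup, so the order of these peaks by fold is loosely determined, as in the list as a whole.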

Other observations

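The peak of highest fold within 1 Mb of Unc5c was not among its assigned peaks. It lay at chr3:141197069-141197930, 268 kb upstream of the Unc5c start, with 11.5-fold enrichment and 34 fragments, and was assigned to Pdha2 alone, 14.9 kb from its start. Pdha2 stands between this peak and Unc5c, and domains in the table stop at the next gene. Weaker peaks assigned to Pdha2 alone lay 353 kb (4.91-fold) and 710 kb (6.88-fold) upstream of Unc5c. On the other side of Dcc, beyond its end, 3 peaks within 1 Mb of the gene body were assigned to Mbd2, with folds of 4.20, 7.70 and 4.19. They lay 1766, 1487 and 1483 kb from the Dcc start, beyond the extension limit of 1000000 bp, and so could not be assigned to Dcc. Which of the neighbouring genes, if any, these peaks act on was not tested.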
